A study of Oryza sativa Japonica Group with 8 samples.

Results

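A set of 48 rice gene IDs stood higher after cold shock both in transgenic seedlings carrying RD29A:AtDREB1a and in their controls. The members were chosen from the deposited counts themselves. Counts were scaled to counts per 1000000 of the library total (CPM), the 2 libraries of a group were averaged, and log2(mean CPM + 1) was taken as the group value. An ID starting with Os was kept where the group value was at least 1.5 higher after cold in each genotype. This held for 48 of 37849 such IDs, or 0.127%. Since these values chose the members, the cold differences below are a description and carry no test.

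The series holds 8 RNA-seq libraries from the aerial parts of 10-day-old seedlings of japonica rice. The 2 genotypes and 2 treatments gave 4 groups, called N_RT, N_CS, T_RT and T_CS. RT stands for seedlings left at room temperature and CS for a cold shock of 20 h on ice. Each group was 1 pool of RNA from 6 seedlings, from which 2 libraries were made.

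The T genotype carries RD29A:AtDREB1a, an Arabidopsis DREB1 coding sequence under the stress-inducible Arabidopsis RD29A promoter, together with the marker genes NPTII, GUS, GFP and pporRFP at the same locus. The construct was placed in the founder line T5 by Cre-lox recombination in the cultivar Taipei 309, so the T lines share a single integration site. The sample notes give the pooled T seedlings as homozygous lines 11, 20 and 29, chosen for similar induction of AtDREB1a, whereas the methods of the study list the homozygous lines 11 and 29. The N genotype is labelled wild type. The series text and the methods of the study give it as the parental line T5, which holds the founder locus, whereas the growth notes of the samples give it as wild-type Taipei 309. Whether N carries the founder locus is therefore not settled here, and every T versus N value below compares either T with T5 or T with Taipei 309. Replicates are technical, so every SD, SE and p-value below compares pools and leaves out the spread between plants. In pooled seedlings, more cells expressing a gene and more RNA per cell cannot be told apart.

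DREB1 proteins, also called CBF, are AP2/ERF transcription factors that are among the first genes to be induced when a plant is chilled. They bind the drought-responsive element in promoters and activate genes for protective proteins, sugars and membrane changes. RD29A is itself a target of this pathway in Arabidopsis, and rice holds its own family of DREB1 genes. The annotation at hand pairs a name with 1 ID of the files and with no member, and the study names 1 member, Os02g0677300, as OsDREB1G. The other members are therefore given by ID alone, without a role, and the leaf identity of the tissue could not be checked against named marker genes.

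The transgene itself was not analysed here. Library totals ranged from 18963211 to 24405824 counts. All 48 members were among the 28218 genes with enough counts to be tested. Summed over the members, the level was 816 and 801 CPM in the N_RT libraries and 5230 and 5306 CPM in the N_CS libraries. It was 1089 and 1106 CPM in the T_RT libraries and 5253 and 5433 CPM in the T_CS libraries. The members thus took 0.0801 to 0.111% of the counts at room temperature and 0.523 to 0.543% after cold shock. Of the summed level, 36.4 and 36.6% in N_CS and 29.5 and 29.4% in T_CS came from 4 IDs, Os01g0186900, Os01g0186950, Os09g0522000 and Os03g0353400.

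**Figure D1:**
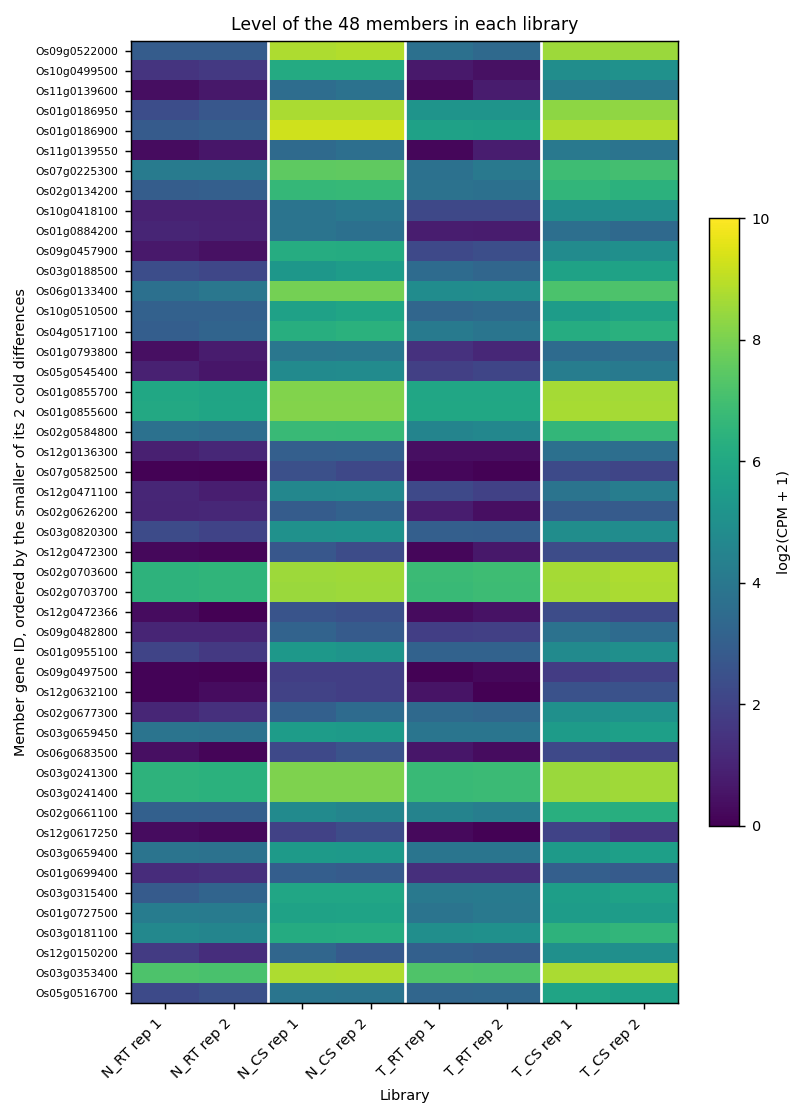
Level of the 48 members in each of the 8 libraries, as log2(CPM + 1) on a colour scale from 0 to 10, with members as rows ordered by the smaller of their 2 cold differences and libraries as columns, 2 per group. The N_CS and T_CS columns are brighter than the room-temperature columns in every row because the rule chose the rows so, and median mean CPM was 3.62 in N_RT, 9.14 in T_RT, 39.3 in N_CS and 38.6 in T_CS.

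Most members had a level of at least 1 CPM already at room temperature. The mean CPM of a member ran from 0.0205 to 144 in N_RT and from 0.0894 to 148 in T_RT. It was under 1 CPM for 15 members in N_RT and for 13 in T_RT, of which 10 were under 1 CPM in both. After cold shock no member was under 1 CPM, and the range was 2.63 to 617 CPM in N_CS and 2.46 to 458 CPM in T_CS. The lowest group mean belonged to N_RT in 41 members and to T_RT in 7, while the highest belonged to N_CS in 27 and to T_CS in 21. The rule itself puts the lowest mean at room temperature and the highest after cold. The split between N and T was not computed over all genes. Between the 2 libraries of a group, the median absolute difference of log2(CPM + 1) over the members was 0.0619 in N_CS and 0.145 in N_RT, with T_RT (0.114) and T_CS (0.112) between them. The largest such difference was 0.612, in T_RT.

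The cold difference of the members was wider in range and larger at the median in N than in T. On the log2(mean CPM + 1) scale it ran from 1.501 to 6.31 in N with a median of 2.32, and from 1.54 to 4.95 in T with a median of 2.07. The median over the 34120 Os IDs with counts was -0.04 in N and -0.05 in T. A difference of at least 3 was seen for 18 members in N and for 8 in T, and for 7 in both. The added 1 CPM makes this scale understate the change of low genes. As a plain ratio of mean CPM, the cold groups stood 3.04 to 145 times higher in N over the 46 members with more than 3 counts in N_RT, with a median of 9.87. In T, the ratio ran from 2.93 to 62.8 with a median of 5.84 over the 48 members. The other 2 members, Os07g0582500 and Os09g0497500, picked here for their low counts, had 1 and 3 counts over the N_RT libraries, and no ratio is given for them.

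Of the 48 members, 33 had the larger cold difference in N and 15 in T. The T difference minus the N difference had a median of -0.24 and ran from -3.17 to 1.18. It was at most -1 for 11 members and at least 1 for a single one, Os12g0136300, and it lay within 0.25 of 0 for 15. Over the Os IDs with counts the median was -0.03, and 53.1% had the larger difference in N.

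The members are a different share of the cold-higher IDs of each genotype. In N, 117 Os IDs (0.309%) passed the difference of 1.5, and in T 435 did (1.15%), so that the members made up 41.0% of the former and 11.0% of the latter. The 69 IDs that passed in N alone had a median T difference of 0.68, and 49 of them were above 0 in T. The 387 IDs that passed in T alone had a median N difference of -0.14, and 245 of them were below 0 in N. For comparison, the medians over the Os IDs with counts were -0.04 in N and -0.05 in T. The shares of those IDs above or below 0 were not computed. Close to the threshold, Os05g0516700 was the member just inside, with 1.501 in N and 2.42 in T. The ID just outside was Os12g0617400, with 1.65 in N and 1.496 in T.

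**Figure D2:**
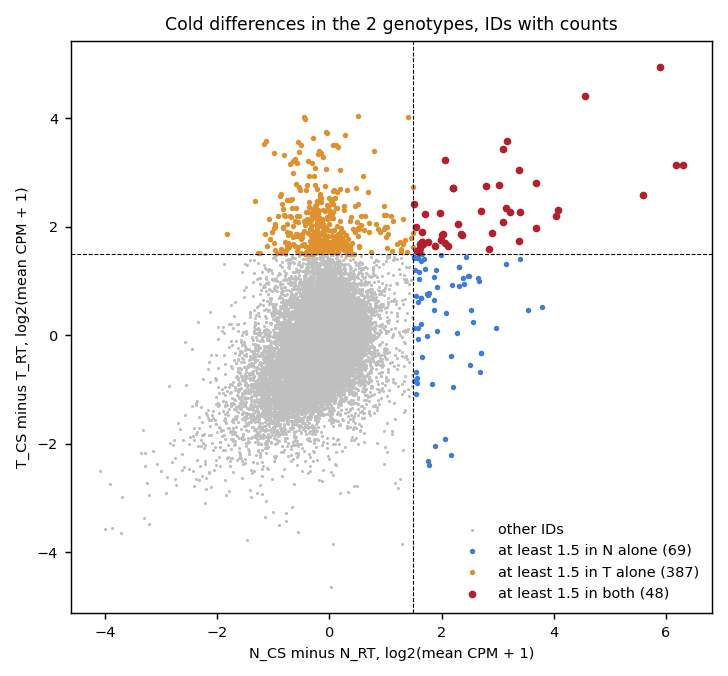
Difference of log2(mean CPM + 1) after cold shock in N (horizontal axis) and in T (vertical axis) for IDs with counts, with dashed lines at 1.5. The 48 members fill the upper right corner, from 1.501 to 6.31 in N and from 1.54 to 4.95 in T, beside 69 IDs past the line in N alone and 387 in T alone.

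The member with the largest smaller difference was Os09g0522000. Its level was 6.597 and 6.53 CPM in N_RT and 437 and 459 CPM in N_CS. In T it was 11.99 and 9.68 CPM at room temperature and 366 and 363 CPM after cold shock. The cold groups stood 68.2 times higher in N and 33.7 times higher in T, and all libraries of the cold groups lay far above all those at room temperature. This ID lies 2 steps before Os09g0522200 in ID order, which the study names OsDREB1A. OsDREB1A, a rice DREB1 transcription factor, was no member, since its difference was 0.56 in N and 2.04 in T. Its level was 67.9 and 63.2 CPM in N_RT, 94.2 and 100.3 CPM in N_CS, 19.4 and 21.2 CPM in T_RT, and 89.2 and 84.2 CPM in T_CS. The ID between them, Os09g0522100, reached 2.44 in N and 1.44 in T and so fell just short in T. The 3 neighbours thus differed in which genotype carried the larger cold difference.

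Next came Os10g0499500, which was lower in T under both treatments. Its level was 1.80 and 2.13 CPM in N_RT and 68.9 and 68.8 CPM in N_CS. In T it was 0.597 and 0.369 CPM at room temperature and 28.8 and 32.0 CPM after cold shock. No T library reached the level of an N library under the same treatment, while the cold differences were 4.56 in N and 4.40 in T. As plain ratios of mean CPM, without the added 1 CPM, the cold groups stood 35.05 times higher in N and 62.8 times higher in T. The counts at room temperature in T were low, 22 over both libraries.

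OsDREB1G (Os02g0677300) is a rice member of the DREB1 family and the only member that the study gives with both a name and an ID. Its level was 1.11 and 1.61 CPM in N_RT and 7.30 and 10.4 CPM in N_CS. In T it was 9.65 and 8.86 CPM at room temperature and 31.1 and 33.6 CPM after cold shock. The T_RT libraries thus lay within the range of the N_CS libraries, and OsDREB1G was the only member whose mean in T_RT (9.26 CPM) was not below its mean in N_CS (8.84 CPM). The cold groups stood 6.52 times higher in N and 3.49 times higher in T. OsDREB1C (Os06g0127100), another rice DREB1 gene, passed in N with 2.57 but not in T with 0.24. Its level was 0.615 and 0.518 CPM in N_RT, 8.09 and 8.50 CPM in N_CS, 7.90 and 8.58 CPM in T_RT, and 10.6 and 9.23 CPM in T_CS.

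The level of Os01g0186900 after cold was the highest of all members in N and in T. It was 6.35 and 7.26 CPM in N_RT, 615 and 618 CPM in N_CS, 52.3 and 50.1 CPM in T_RT, and 453 and 464 CPM in T_CS. The T libraries were above the N libraries at room temperature and below them after cold, and the cold difference was 6.31 in N against 3.14 in T. Its neighbour in ID order, Os01g0186950, named here for that position, followed the same pattern with 6.17 in N and 3.14 in T. The 2 IDs kept a ratio of counts between 1.31 and 1.55 in all 8 libraries, and whether they share reads was not tested.

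**Figure D3:**
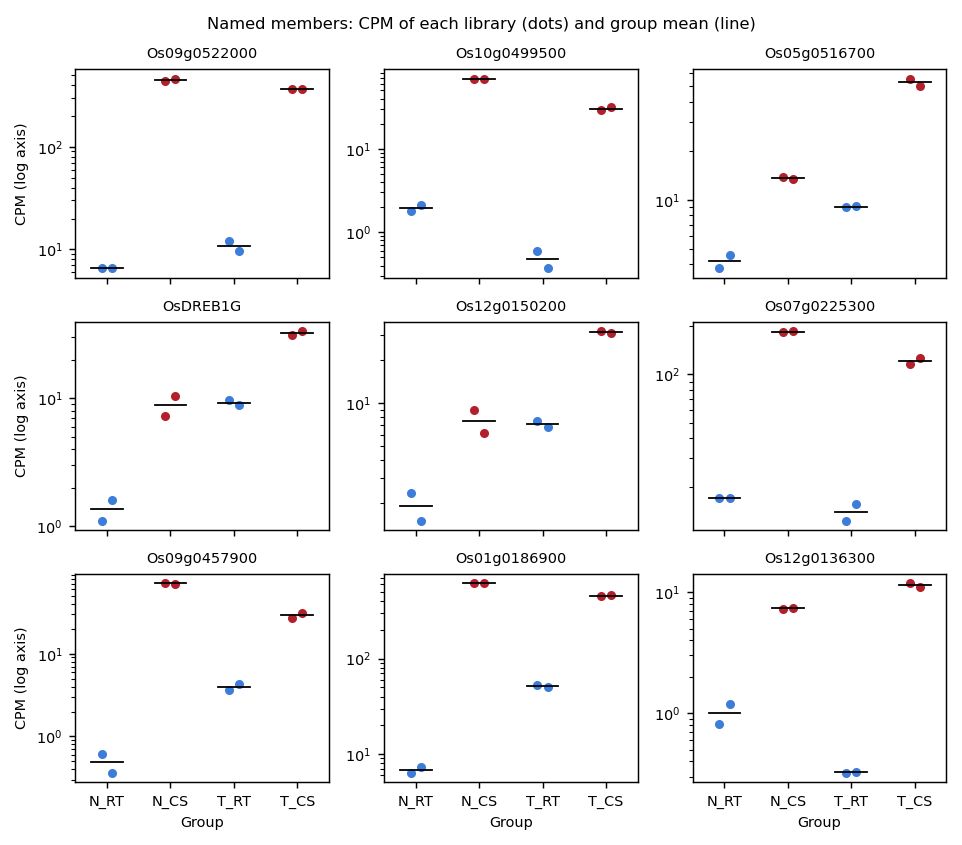
Level in CPM (log axis, with a separate scale in each panel) of 9 members in the 2 libraries of each group (dots, blue at room temperature and red after cold) with the group mean (line). Os09g0457900 and Os01g0186900 are higher in T_RT than in N_RT and lower in T_CS than in N_CS, OsDREB1G, Os05g0516700 and Os12g0150200 are higher in T under both treatments, and Os10g0499500 is lower under both.

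Whether the members also differed between the genotypes was then asked with edgeR's quasi-likelihood test and Benjamini-Hochberg adjustment over the 28218 genes, at an FDR of at most 0.01. The mean of T_RT and T_CS was first compared with the mean of N_RT and N_CS, a contrast that is not among those of the rule but uses the same libraries. The libraries of a member differed more at room temperature than after cold in N, and the rule adds 1 CPM, so error in the N_RT and T_RT libraries enters both the choice of members and this contrast, and the counts are not free of that choice. By this measure 29 members were higher in T, or 60.4%, beside 19.3% of all genes tested. Only 3 were lower, or 6.25%, beside 17.4% of all genes tested. These 3 were Os10g0499500, Os07g0225300 and Os01g0727500, the last of which is named as the remaining one of this count. The median log2 fold change was 0.46 over the members and -0.02 over all genes tested, and it ran from -1.52 to 2.41. Among the 23430 genes whose mean CPM lay within the range of the members, 1.36 to 291 CPM, the shares were 21.5% higher and 19.7% lower.

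At room temperature the balance was on the side of T. In T_RT versus N_RT, 26 members were higher, or 54.2%, beside 9.44% of all genes tested, and 2 were lower, or 4.17%, beside 7.49%. Among genes in the members' range of mean CPM the shares were 10.1% higher and 8.47% lower. The median log2 fold change was 0.77 over the members and 0.00 over all genes tested, with 22 members at 1 or above. Not all of them passed the FDR, such as Os07g0582500 with low counts, at 1.75 (FDR 0.386). The share of all genes at 1 or above was not computed. The thresholds of the study were a log2 fold change of at least 2 or at most -1 at the same FDR. By them 6 members were higher (12.5%, beside 0.553% of all genes tested) and 2 lower (4.17%, beside 0.454%). The N_RT and T_RT libraries also entered the cold differences that chose the members, so these counts are not independent of the rule.

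After cold shock members were called in both directions, and the median lay near 0. In T_CS versus N_CS, 18 were higher, or 37.5%, beside 21.4% of all genes tested, and 11 were lower, or 22.9%, beside 20.9%. The balance depended on the processing. With 1 ID kept of each near-equal pair of neighbours described below, 15 were higher and 11 lower, with a median of -0.07. Scaled by library totals alone, 16 were higher and 14 lower. In CPM, both T_CS libraries lay above both N_CS libraries in 18 members and below both in 20. The share of all genes with such a split was not computed, so these counts only describe the members. Among genes in the members' range of mean CPM the shares were 24.1% higher and 23% lower. The median log2 fold change was 0.01 over the members and -0.05 over all genes tested, and 19 members lay within 0.25 of 0. How many of all genes lay that near 0 was not computed. By the thresholds of the study, 2 members were higher (4.17%, beside 2.39% of all genes tested) and 2 lower (4.17%, beside 4.92%). The 2 higher were Os12g0150200 and Os05g0516700, and the 2 lower were Os09g0457900 and Os10g0499500. These libraries too entered the rule.

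**Figure D4:**
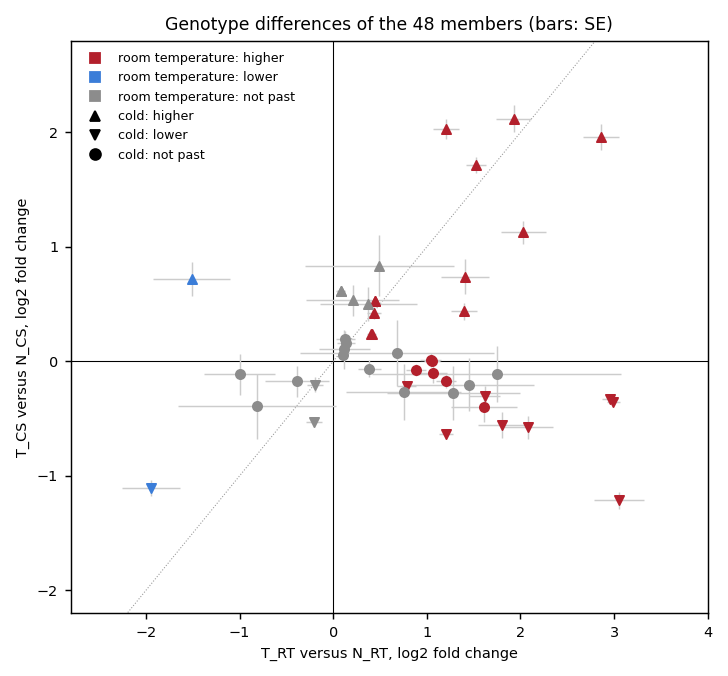
Fitted log2 fold change of the 48 members in T_RT versus N_RT (horizontal axis) and in T_CS versus N_CS (vertical axis), with bars for the SE and a dotted line of equal change. Colour marks the call at room temperature and shape the call after cold, both at an FDR of at most 0.01, and 26 members are higher in T at room temperature while the members scatter on both sides of 0 after cold, from -1.21 to 2.12.

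Set side by side, the 2 comparisons sorted the members into 8 of the 9 possible patterns. They are given with the share of all genes tested that fell into the same pattern. The most frequent was no call in either comparison, with 13 members (27.1%, beside 52% of all genes tested). Next was higher in T under both treatments, with 12 members (25%, beside 3.59%). Higher in T at room temperature and lower in T after cold held for 8 members (16.7%, beside 2.98%), and higher in T at room temperature alone for 6 (12.5%, beside 2.87%). Higher in T after cold alone held for 5 members (10.4%, beside 15.9%), and lower in T after cold alone for 2 (4.17%, beside 15.2%). A single member, Os10g0499500, was lower in T under both treatments (2.08%, beside 2.68%), and a single one, Os12g0136300, was lower at room temperature and higher after cold (2.08%, beside 2%). Both comparisons use the libraries of the rule, so these shares are a description. Each ID was counted, although the near-equal neighbours described below fell into the same pattern. Os02g0703600 with Os02g0703700, and Os03g0241300 with Os03g0241400, were higher in T under both treatments. Os01g0855600 and Os01g0855700 were higher after cold alone, and Os03g0659400 and Os03g0659450 had no call.

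The 12 members higher in T under both treatments had a median cold difference of 1.82 in N and 1.86 in T. Within them the T difference minus the N difference went both ways, from -0.80 for Os03g0188500, named here as the lowest of the 12, to 0.92 for Os05g0516700. OsDREB1G was among them, with a log2 fold change of 2.86 ± 0.193 (SE) at room temperature (FDR 2.55e-20) and 1.96 ± 0.115 after cold (FDR 5.57e-24). Its genotype mean difference of 2.41 was the highest of the members. Os12g0150200 followed at 2.02. The level of Os12g0150200 was 2.34 and 1.503 CPM in N_RT, 8.87 and 6.16 CPM in N_CS, 7.49 and 6.77 CPM in T_RT, and 31.9 and 30.7 CPM in T_CS. As for OsDREB1G, its T_RT libraries lay within the range of the N_CS libraries, and all T_CS libraries lay above every other library. Os05g0516700 had 3.77 and 4.56 CPM in N_RT, 13.9 and 13.4 CPM in N_CS, 8.96 and 9.11 CPM in T_RT, and 55.6 and 49.99 CPM in T_CS. Here T was above N at both treatments, and the log2 fold change was 1.20 at room temperature (FDR 8.64e-11) and 2.03 after cold (FDR 9.01e-31).

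The 8 members that were higher in T at room temperature and lower in T after cold had a median cold difference of 4.83 in N, where they ran from 3.39 to 6.31, and of 2.45 in T. Being higher at room temperature and lower after cold makes the difference in N the larger one by arithmetic. Members of other patterns lay within the same range in N, such as Os10g0499500 at 4.56. Their median log2 fold change was 1.94 in T_RT versus N_RT and -0.45 in T_CS versus N_CS. Os09g0457900 showed this most widely. It had 0.615 and 0.363 CPM in N_RT, 71.2 and 70.4 CPM in N_CS, 3.63 and 4.35 CPM in T_RT, and 27.1 and 31.0 CPM in T_CS. Its 4 groups did not overlap, and both T groups lay between the N groups. The log2 fold change was 3.05 ± 0.264 at room temperature (FDR 1.83e-15) and -1.21 ± 0.0741 after cold (FDR 3.53e-23). For Os01g0186900 it was 2.99 (FDR 1.12e-45) and -0.35 (FDR 5.52e-16), and for Os09g0522000 it was 0.79 (FDR 1.97e-09) and -0.22 (FDR 1.25e-07). As a log2 fold change, the genotypes differed less after cold than at room temperature in these members. In CPM the gap was wider after cold. For Os09g0457900 the means were 0.489 in N_RT and 3.99 in T_RT, and 70.8 in N_CS and 29.0 in T_CS.

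The 26 members higher in T at room temperature included 21 of the 33 with the larger cold difference in N, and their median T minus N difference was -0.91. Among the 20 members with no call at room temperature, 11 had the larger difference in N and the median was -0.03. The T_RT and N_RT libraries enter both quantities, so this is a description of the same values.

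A few members went against the majority. Os07g0225300 had 17.0 and 16.9 CPM in N_RT, 183 and 187 CPM in N_CS, 12.3 and 15.6 CPM in T_RT, and 117 and 127 CPM in T_CS. Its T libraries lay below its N libraries in each treatment, but the log2 fold change passed the FDR after cold alone, with -0.53 (FDR 3.43e-16) beside -0.21 at room temperature (FDR 0.074). Os10g0499500 was lower in T by -1.94 ± 0.313 at room temperature (FDR 8.13e-07) and by -1.11 ± 0.0731 after cold (FDR 1.69e-21). Os12g0136300 was the only member lower in T at room temperature and higher after cold. It had 0.819 and 1.19 CPM in N_RT, 7.26 and 7.43 CPM in N_CS, 0.322 and 0.328 CPM in T_RT, and 11.8 and 11.1 CPM in T_CS. The groups did not overlap, and the cold groups stood 7.30 times higher in N and 35.3 times higher in T. Its log2 fold change was -1.51 at room temperature (FDR 0.00353) and 0.72 after cold (FDR 4.79e-05). The call at room temperature rested on 43 counts in N_RT and 15 in T_RT. It was lost with DESeq2 (adjusted p 0.0109) and with the 4 libraries of the comparison alone. It was also lost without N_RT replicate 2, without T_RT replicate 1 and without T_RT replicate 2. Over the alternatives the log2 fold change at room temperature ran from -1.78 to -1.25.

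The members were spread over 11 of the 12 chromosomes as read from their IDs. Chromosomes 1 and 3 held 9 each, chromosomes 2 and 12 held 7 each, and chromosome 8 held none of its 2310 IDs with counts. Relative to the IDs with counts, the share was highest on chromosome 12, at 0.364%. In ID order, 8 pairs of members were direct neighbours, among them Os11g0139550 and Os11g0139600 and the run Os12g0471100, Os12g0472300 and Os12g0472366, named here for their position. In 4 of these pairs the higher count exceeded the lower by at most 25% in all 8 libraries. These pairs were Os01g0855600 and Os01g0855700, Os02g0703600 and Os02g0703700, Os03g0241300 and Os03g0241400, and Os03g0659400 and Os03g0659450. For Os03g0241300 and Os03g0241400 the ratio was 1 to 1.002. Whether the IDs of a pair overlap or share reads was not tested, since their coordinates and strands were not at hand. The 4 pairs hold 16.7% of the members, beside 8.31% of the Os IDs with counts that lie in such a pair. With 1 ID kept of each pair, 44 members remained, of which 26 were higher and 3 lower in the genotype mean difference.

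Most genes that the study names with an ID were not members. Of its 65 IDs, 2 passed the cold difference of 1.5 in N and 30 in T, and OsDREB1G alone passed in both. The study chose these IDs largely for their change in T_CS versus N_CS, so their counts are not independent of that comparison. Of 5 JAZ genes, whose products hold jasmonate signaling in check, none passed in N and all 5 passed in T, with a median difference of -0.67 in N and 2.42 in T. Of 5 jasmonate synthesis genes, none passed in N and 4 in T. Among the 8 WRKY genes and 6 ERF genes, which encode transcription factors, none passed in N, and 2 WRKY and 2 ERF genes passed in T. Over all Os IDs, 0.309% passed in N and 1.15% in T. Some genes short of 1.5 in T were so low that the added 1 CPM limits the difference. OsERF118 had 0.184 and 0 CPM in T_RT and 1.37 and 0.791 CPM in T_CS, a difference of 0.93. Others were not low, such as OsWRKY76 with 37.6 and 42.5 CPM in T_CS and a difference of 0.73.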

How the data were processed

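The deposited values are whole-number counts per gene ID. The authors trimmed reads with Trimmomatic, aligned them with STAR to IRGSP-1.0 and counted them with featureCounts 1.6.4. The study's methods speak of normalized counts, but the values are whole and their totals differ between libraries (18963211 to 24405824), so they were used as raw counts. The members, lists and tests were chosen with earlier results of these data known.

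CPM were taken per library total with a pseudocount of 1 and a threshold of 1.5. Tests were run in R 4.3.3 with edgeR 4.0.16 (TMM scaling, filterByExpr at its defaults of 10 counts per library and 15 in total, 1 mean per group over 8 libraries, Benjamini-Hochberg adjustment). DESeq2 1.42.0 was an alternative. TMM raised the cold differences by 0.11 in N and 0.115 in T against library totals. Counts carry counting error and library preparation error only, since each group is 1 pool. The 2 libraries of a group differed beyond sampling noise, with a chi-square per gene of 1.71 to 2.39.

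The rule for named genes took members named by the study, the 2 with the largest smaller cold difference, the 2 highest and 2 lowest past the FDR in each genotype comparison, and the member and the ID next to the threshold. On simulated data for the genotype mean difference, with 27705 genes, 50 of 50 genes were recovered at a log2 fold change of -2, 47 at -1, 50 at 1 and 50 at 2, and 3 unchanged genes passed. The simulation gave every gene the same dispersion and no cold difference. It therefore does not cover members that are low at room temperature alone. Promoter and protein sequences were not used here.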

Additional observations from a re-analysis of the deposited data

Results flagged for a closer look

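The named members were picked in part as the extremes of the 2 genotype comparisons. In 4 of them the transgenic libraries lay on opposite sides of the control libraries at the 2 treatments. The log2 fold change of T over N was 0.787 at room temperature and -0.219 after cold for Os09g0522000, 3.05 and -1.21 for Os09g0457900, and 2.99 and -0.351 for Os01g0186900. It was -1.51 and 0.72 for Os12g0136300. Over all members, 13 had both T_RT libraries above both N_RT libraries and both T_CS libraries below both N_CS libraries. The reverse held for 1 member. The share of all genes with such a pattern of libraries was not computed, so these counts only describe the members. The difference between the treatments was not tested, because it is made of the same cold differences that chose the members.

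The rule was limited to IDs starting with Os. Outside them, 4 IDs met both cold differences. They were 3 IDs starting with ENSRNA and the ID gene-cob, and their highest count in a library was 217.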

How the results depend on the processing

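The number of members was 115 with a threshold of 1 and 22 with a threshold of 2. It was 63 with TMM-scaled library sizes, 69 with a pseudocount of 0.5, 38 with a pseudocount of 2, and 47 to 52 when 1 library was left out, and 42 members passed without each of the 8 libraries in turn. The number with the larger cold difference in N was 31 to 34 when 1 library was left out. By the thresholds of the study, the members higher in T fell to 2 after cold and 6 at room temperature, and the lower ones after cold to 2, by construction. Members lower in T at room temperature numbered 1 with DESeq2, 1 with the 4 libraries of the comparison alone, and 1 to 2 when 1 library was left out (1 without N_RT replicate 2 or T_RT replicate 1). The number was then without Os12g0136300 in each case, whose FDR ranged from 0.00182 to 0.0736 and whose counts are low. When 1 library was left out, the other counts were 27 to 32 higher and 2 to 3 lower in the genotype mean difference, 15 to 19 higher and 8 to 12 lower after cold, and 25 to 28 higher at room temperature. Of the 396 values of named members under the alternatives, none reversed, and 389 kept their side of the FDR. Os07g0225300 passed at room temperature with library totals (FDR 0.00988) and without T_RT replicate 2 (FDR 0.00337). With the replicate number as a block, the counts were 29 higher and 3 lower in the genotype mean difference, 18 and 11 after cold, and 26 and 2 at room temperature. The numbers share no pairing beyond the name, with correlations of deviations between -0.0104 and 0.0113. The planned window for promoter motifs was not run. Keeping 1 ID of each near-equal pair, and leaving out libraries for the difference of cold responses, were chosen after seeing the data.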
